A study of Mus musculus with 6 samples.

Results

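ETS factors are transcription factors that share a winged helix DNA-binding domain and recognise a GGAA core. T cells use several members at once, and these bind together with partners such as RUNX, AP-1 and SRF. The loci described here are those of 9 members, Ets1, Ets2, Fli1, Erg, Elf1, Etv6, Elk3, Gabpa and Spi1, in naive CD4 T cells of the mouse and in CD4 T cells grown toward the Th17 fate, the helper cells that make IL-17.

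Accessible chromatin was mapped by ATAC-seq, which marks DNA open to the Tn5 transposase. All groups were wild-type C57BL/6 CD4 T cells. Naive cells were untreated. Th17 cells were cultured for 48 h or 72 h with IL-6 at 20 ng/mL, TGF-β at 0.1 ng/mL, and antibodies to CD28 at 1 μg/mL and to CD3ε at 0.25 μg/mL in plates pre-coated with hamster IgG. The 3 conditions have 2 libraries each, of 10000 cells and described as biological replicates, and 1 peak list for each condition was used. Whether a list holds 1 library or both is not stated. Differences between conditions therefore have no replicate check, and no p-value is given. Peaks overlapping by 1 bp or more across the 3 lists were joined into regions, and those overlapping the RefSeq GRCm38 body of a member with 50 kb on each side were taken. This gave 208 distinct regions of 81315 in all, with 128 of them in the naive list, 95 in the 48 h list and 125 in the 72 h list. Ets1 and Fli1 are neighbours on chromosome 9 and share 2 of these regions. Gained regions had a peak in the later list and none in the earlier one, and lost regions had the reverse. A missing peak says that none passed the authors' calling and filters, not that the DNA was closed. In a culture, fewer cells with an open site and less opening per cell cannot be told apart.

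Genes that mark cell types were counted to set the lists beside their labels. All 6 T cell genes checked (Cd3e, Cd3d, Cd3g, Cd4, Cd5 and Cd28) had regions within 10 kb in every list, summing to 41 in naive cells, 29 at 48 h and 35 at 72 h. In these sums a region shared by neighbouring genes counts for each. The 6 Th17 genes went from 16 to 22 and 36. Il17a went from 0 to 3 and 5, while Il23r, alone of the 6, went down, from 9 to 5 and 7. The 6 naive T cell genes went from 76 to 28 and 35. Of genes of other cells, the 6 of CD8 and NK cells had 9, 10 and 10, and the 6 of B cells 14, 16 and 28. Over the genome the lists held 51917, 37425 and 51941 regions. Peak numbers within each list run along the genome and skip 4446 numbers in the naive list, 4606 at 48 h and 4321 at 72 h. Where a list skips a number, a peak missing from that stretch cannot be read as absent, and such cases are given for each comparison of lists. The reason for the skipped numbers is not stated.

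The promoters are shown first because they were the part of these loci with the least difference between lists. RefSeq promoter windows (250 bases before to 50 after an annotated start, GRCm38.p6) matched 6 of the 9 members with 9 windows. Of the 9 windows, 6 overlapped a region present in all 3 lists, those of Ets2, Etv6, Elk3 and Gabpa and both windows of Elf1. The other 3 belong to Erg and overlapped no region. Over all 32851 RefSeq windows, 34.1% overlapped a region present in all 3 lists and 58.9% overlapped none. The 250 bases before the start are printed 5′ to 3′ in the direction of the gene for the windows that differ in motif content or in peaks, with every match to the 4 motifs searched in capitals.

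Gabpa, plus strand, chr16:84834874-84835123: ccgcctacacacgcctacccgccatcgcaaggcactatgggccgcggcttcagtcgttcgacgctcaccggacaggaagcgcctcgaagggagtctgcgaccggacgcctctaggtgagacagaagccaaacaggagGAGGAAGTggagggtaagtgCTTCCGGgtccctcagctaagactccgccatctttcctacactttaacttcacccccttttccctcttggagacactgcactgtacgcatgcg
Elf1 first start, plus strand, chr14:79480944-79481193: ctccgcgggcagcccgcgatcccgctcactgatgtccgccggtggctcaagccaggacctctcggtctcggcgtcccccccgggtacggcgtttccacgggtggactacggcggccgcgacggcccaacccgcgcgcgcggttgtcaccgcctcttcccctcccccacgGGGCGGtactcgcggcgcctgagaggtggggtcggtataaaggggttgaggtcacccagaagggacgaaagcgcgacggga
Elf1 second start, plus strand, chr14:79515424-79515673: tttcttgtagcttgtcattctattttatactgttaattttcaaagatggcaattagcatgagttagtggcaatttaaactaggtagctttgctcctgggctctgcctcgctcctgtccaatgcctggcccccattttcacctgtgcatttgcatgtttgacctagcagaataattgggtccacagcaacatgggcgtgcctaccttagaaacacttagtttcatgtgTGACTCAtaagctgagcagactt
Etv6, plus strand, chr6:134035450-134035699: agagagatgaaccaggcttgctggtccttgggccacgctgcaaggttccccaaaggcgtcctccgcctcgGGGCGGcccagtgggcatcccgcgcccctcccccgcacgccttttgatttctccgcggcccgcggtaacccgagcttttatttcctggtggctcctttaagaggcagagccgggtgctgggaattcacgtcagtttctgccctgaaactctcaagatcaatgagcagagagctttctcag
Erg first start, minus strand, chr16:95586594-95586843: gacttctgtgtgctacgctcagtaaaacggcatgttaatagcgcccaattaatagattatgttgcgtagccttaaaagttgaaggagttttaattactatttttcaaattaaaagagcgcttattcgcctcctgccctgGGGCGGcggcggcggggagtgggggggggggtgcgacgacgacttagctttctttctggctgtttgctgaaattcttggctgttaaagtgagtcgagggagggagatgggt

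The motifs were CCGGAAG, an ETS core with its flank, GAGGAAGT, the type bound by PU.1, GGGCGG, the box of SP and KLF factors, and TGANTCA, the AP-1 site, each searched on both strands of the whole window of 300 bases. CCGGAAG was in 8.86% of all windows, GAGGAAGT in 3.20%, GGGCGG in 35.7% and TGANTCA in 7.81%. The 2 ETS-type motifs can overlap each other, and the 2 matches in Gabpa do not. Gabpa, which encodes the DNA-binding subunit of the GABP complex that serves housekeeping and mitochondrial genes, was the one member whose windows held them. Its GAGGAAGT began at -113 from the annotated start and its CCGGAAG match, on the minus strand of the gene, at -93. The second start of Elf1 held a TGANTCA at -23. GGGCGG was found in the windows of Ets2 at -233, Etv6 at -180, Elk3 at -18 and 16, the first start of Elf1 at -81 and the first start of Erg at -111. These are matches of letters and not measured binding sites.

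The peaks over the starts ranged from the widest of their locus, as at Gabpa, to 188 bp at 48 h at the second start of Elf1. At Gabpa the region spanned chr16:84834526-84836376, and its peak was 1757 bp wide in naive cells, 1521 bp at 48 h and 1745 bp at 72 h. The authors' peak score there, used here only to rank peaks within 1 list, was 175 at 48 h and 305 at 72 h, the 96.7th percentile of 72 h regions. This region also covers the start of the neighbour Atp5j. At the first start of Elf1, a factor of T cells that acts on T cell activation genes, the peak over chr14:79480736-79482127 was 1392, 1287 and 1294 bp wide, and this region also covers a start of Wbp4. At the second Elf1 start the peak over chr14:79515326-79515854 was 334 bp wide in naive cells, 188 bp at 48 h and 529 bp at 72 h. At Etv6, which encodes a repressor needed by blood stem cells, the widths over chr6:134034909-134036285 were 1377, 1127 and 1033 bp, and a window of Gm46977 lies there too. At Ets2, a close relative of Ets1 that responds to MAP kinase signals, they were 1181, 911 and 958 bp over chr16:95701840-95703028, and at Elk3, an SRF partner, 445, 250 and 311 bp over chr10:93310900-93311344. The start regions stood in every list at these 5 genes. Widths come from separate calling of each list and are no measure of how open a site was.

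Erg, a factor of blood stem cells and endothelium that is low in mature T cells, had no peak over its 3 annotated starts. Its nearest region to the upper end of the gene lay 759 bp away, at chr16:95585320-95585841, and was present in all 3 lists. The naive list skips a number over that end of the gene. For Ets1, Fli1 and Spi1 only the ends of the gene body were used. No list had a peak within 15 kb of the lower end of Ets1 (nearest 15443 bp in naive cells and 15942 bp at 48 h and 72 h), and no number was skipped there. The upper end of Fli1 had its nearest peak at 1085 bp in naive cells, 2338 bp at 48 h and 2574 bp at 72 h. At the lower end of Spi1 the nearest peak was 582 bp away in naive cells and at 72 h, and the 48 h list skips numbers there.

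**Figure D1:**
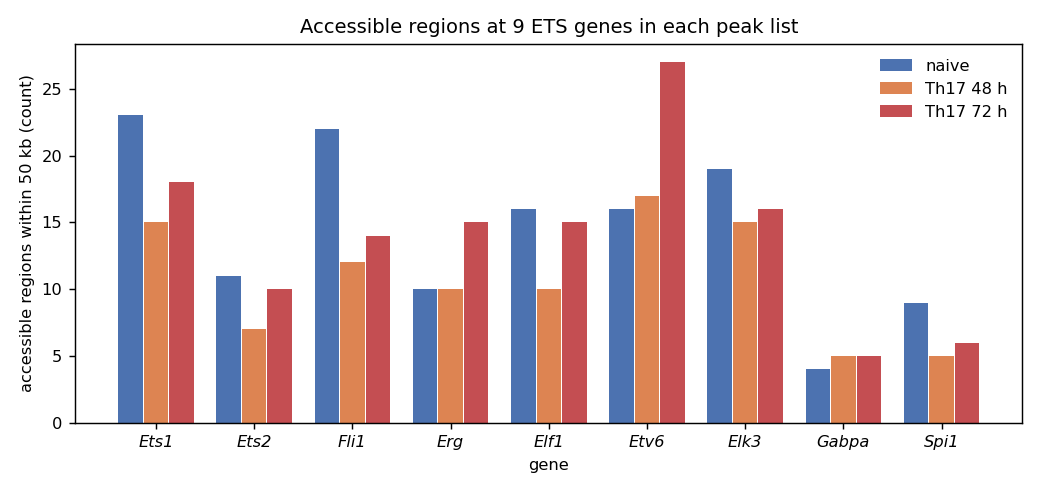
Number of accessible regions within 50 kb of each of the 9 genes (y axis, count) in the naive, 48 h and 72 h lists (blue, orange and red bars, 1 list each, no replicates). Ets1 and Fli1 have their highest bars in naive cells (23 and 22), and Etv6 has its highest at 72 h (27).

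The members differed among themselves in the number of regions and in how it went between the lists. Ets1, on chromosome 9 from 32636241 to 32757820, had 23 regions in naive cells, 15 at 48 h and 18 at 72 h. Fli1, on chromosome 9 from 32422204 to 32543432, had 22, 12 and 14. Elk3, on chromosome 10 from 93247415 to 93311159, had 19, 15 and 16. These 3 loci had fewer regions at both times than in naive cells. So did Spi1, the gene of PU.1. Spi1, on chromosome 2 from 91082374 to 91115759, had 9, 5 and 6 regions. Ets2, on chromosome 16 from 95702407 to 95721049, had 11, 7 and 10, and Elf1, on chromosome 14 from 79481174 to 79582491, had 16, 10 and 15. Both had close to the naive number at 72 h. At Elf1 and Spi1, peaks missing at 48 h lie in part or all in skipped stretches of the 48 h list. These hold 4 of the 8 regions lost at 48 h at Elf1 and all 5 at Spi1. Outside them the difference of gained and lost regions at 48 h was -3 at Elf1 and 1 at Spi1. Whether peaks were dropped in these stretches is not known. Etv6, on chromosome 6 from 134035700 to 134270158, had 16, 17 and 27, and Erg, on chromosome 16 from 95359169 to 95586600, had 10, 10 and 15. They were the loci with more regions at 72 h than in naive cells by 5 or more. Gabpa, on chromosome 16 from 84834891 to 84863783, had 4, 5 and 5, and with 8 in all the fewest of the 9. Per 100 kb of window, Elk3 was the densest with 18.3 regions over the 3 lists, followed by Ets1 with 16.7 and Fli1 with 13.6, and Gabpa (6.21) and Erg (6.41) were the sparsest.

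Naive cells were compared with 48 h to see how these loci differ early in the culture. Of the 128 naive regions 80 were lost, which is 62.5% (95% exact interval 53.5 to 70.9%), where 55.9% of naive regions were lost over the genome. Of the 95 regions at 48 h, 47 were gained, which is 49.5% (39.1 to 59.9%), where the genome gave 38.8%. The interval for losses holds the genome's value, and that for gains starts just above it. All intervals cover counting error only. More regions were lost than gained at 6 of the 9 members, as at 61.8% of the 18222 protein-coding genes with a region within 50 kb. More were gained than lost at 2, as at 21.3% of genes, and Erg had equal numbers. For 9 members these counts are near the shares over all genes.

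Ets1, which T cells need for their development and for IL-2 and which is known as a brake on Th17 cells in mice, had 9 gained and 17 lost regions at 48 h. Fli1, a factor of blood stem cells and megakaryocytes, had 5 gained and 15 lost, and Elk3 had 8 gained and 12 lost. Elf1 had 2 gained and 8 lost, Ets2 had 2 gained and 6 lost, and Spi1 had 1 gained and 5 lost. Spi1 encodes PU.1, which directs myeloid and B cells and is shut down when T cells commit. All 5 regions counted as lost at Spi1 lie in a stretch where the 48 h list skips a number, so that outside such stretches it had more gained than lost. At Etv6 11 regions were gained and 10 lost, at Erg 6 and 6, and at Gabpa 3 and 2. Over the 9 loci, 30 of the 127 gained or lost calls lie in such stretches, and none of the 21 at Etv6 does. At Elf1 5 of the 10 calls do, at Elk3 5 of 20, at Ets1 7 of 26 and at Gabpa 2 of 5. Outside these stretches Elk3 also had more gained than lost regions, and Gabpa more lost than gained. When flanks were cut to 10 kb, Etv6 had more lost than gained at 48 h.

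Setting 72 h against naive cells gives the same view after the longer culture, measured from the same naive list as before. At 72 h, 73 of the 128 naive regions were lost, which is 57.0% (48.0 to 65.7%) against 49.2% over the genome. Of the 125 regions at 72 h, 70 were gained, which is 56.0% (46.8 to 64.9%) against 49.2% over the genome. Both intervals hold the genome's value. With equal numbers of the widest peaks from each list, 57.8% were gained (47.7 to 67.6%), and the genome's 47.1% lay just below this interval. In that setting 56.6% were lost (46.2 to 66.5%), and this interval holds the genome's 47.5%. More regions were gained than lost at 3 of the 9 members, against 40.5% of genes, and more were lost than gained at 6, against 43% of genes. The median difference of gained and lost regions was -1 over the 9 members and 0 over the 18222 genes.

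Etv6 stood at one end, with 20 regions gained and 9 lost by 72 h. Of its 27 regions at 72 h, 74.1% were gained (53.7 to 88.9%), where the genome gave 49.2%. Away from promoter windows 76.9% of them were gained (56.4 to 91.0%), and this interval holds the genome's 58.4% for such regions. Erg had 10 gained and 5 lost, and Gabpa 3 gained and 2 lost. Fli1 stood at the other end, with 7 gained and 15 lost, so that 68.2% of its naive regions were lost (45.1 to 86.1%). Ets1 had 12 gained and 17 lost, and 73.9% of its naive regions were lost (51.6 to 89.8%), where the genome gave 49.2%. Away from promoter windows the share was 77.3% (54.6 to 92.2%), and this interval holds the genome's 58.8%. No promoter window matched Ets1 itself, so this share does not leave out its own starts. With equal numbers of the widest peaks from each list, the difference of gained and lost regions at Ets1 was 1 in place of -5. Among the stronger peaks (at or above the median score of their list, or the median width in naive cells), that of Erg was -1 in place of 5. These values of single members are descriptions. Elk3 had 8 gained and 11 lost, Spi1 had 1 and 4, Elf1 had 5 and 6 and Ets2 had 4 and 5. At Etv6, Ets2, Elf1, Elk3 and Spi1 none of these calls lies in a skipped stretch of the list that lacks the peak. At Ets1 3 of the 29 calls do, at Fli1 3 of 22, at Erg 3 of 15 and at Gabpa 3 of 5.

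**Figure D2:**
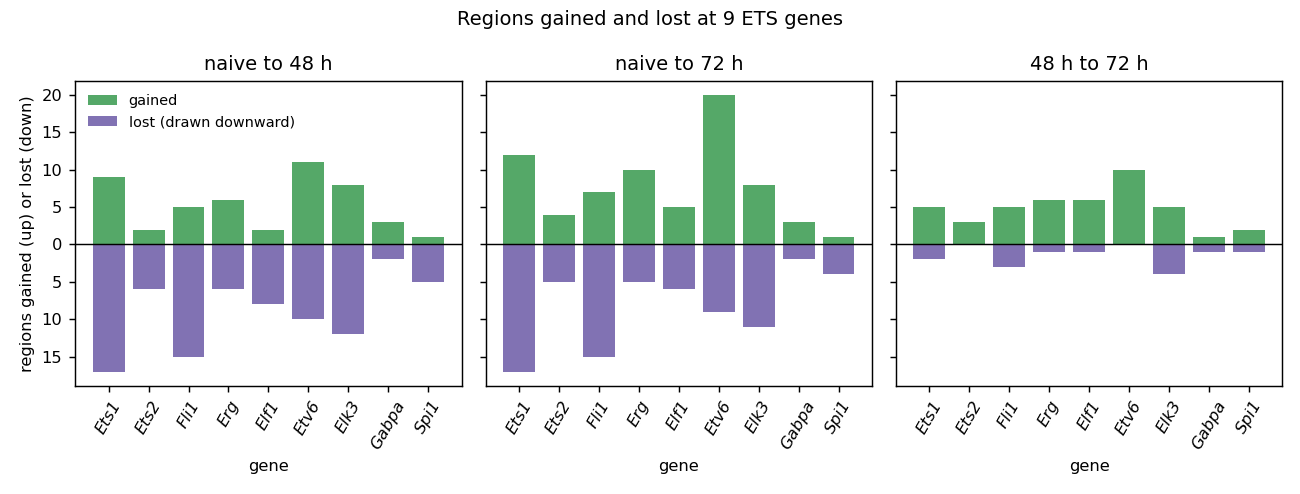
Regions gained (green, upward) and lost (purple, downward, as positive counts) at each of the 9 genes for the 3 pairs of lists. From naive to 72 h, Etv6 has 20 gained and 9 lost and Fli1 has 7 gained and 15 lost, and from 48 h to 72 h Etv6 has 10 gained and 0 lost.

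The last comparison sets 72 h against 48 h, the later against the earlier stage of culture. At 72 h, 43 regions were gained and 13 of the 95 at 48 h were lost, which is 13.7% (7.49 to 22.3%) against 15.9% over the genome. The gained regions were 34.4% of those at 72 h (26.1 to 43.4%) against 39.4% over the genome. Gains outnumbered losses at 8 of the 9 members, against 67.5% of genes, and Gabpa had 1 of each. Etv6 gained 10 and lost 0 of its 17 regions, and Ets2 gained 3 and lost 0 of its 7. Over the 9 loci, 13 of the 56 gained or lost calls lie in skipped stretches, and 10 of these are gains. At Elf1 4 of the 7 calls do, all of them gains, and outside these stretches its difference was 1 in place of 5. At Erg 3 of 7 calls do, and at Etv6, Ets2 and Gabpa 0. Elk3 was the most mixed, with 5 gained and 4 lost. With equal numbers of the widest peaks its difference was -7 in place of 1, and that of Fli1 -1 in place of 2. Among the stronger peaks, Erg was at -2 in place of 5 and Fli1 at -2. The lists differ in length in the same direction, with 40624 peaks at 48 h, 53926 at 72 h and 53259 in naive cells, and the part of list length in these counts was not tested. With 40624 of the widest peaks taken from each list, the gained share was 24.5% (16.5 to 34.0%) at the ETS loci and 28.7% over the genome.

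The shares were also taken away from promoters. Of the 208 regions, 10 overlapped a RefSeq promoter window of any gene (4.81%, 2.33 to 8.66%), against 13.2% of all regions, and 9 of those 10 were present in all 3 lists. No window matched Ets1, Fli1 or Spi1. Any regions over their starts therefore count as away from promoter windows, unless a window of another gene lies there. Over the genome 79.3% of regions over a promoter window were present in all 3 lists, against 17.4% of those away from one. Among the 198 regions of the ETS loci away from promoter windows, 36 were in all 3 lists, which is 18.2% (13.1 to 24.3%). Away from promoter windows, 66.9% of the naive regions of the ETS loci were lost at 48 h and 66.3% of those over the genome. For gains at 48 h the values were 54.7% and 49.3%, for losses at 72 h 61.0% and 58.8%, and for gains at 72 h 60.3% and 58.4%. From 48 h to 72 h, 37.1% of the 72 h regions were gained (28.3 to 46.5%) and 46.6% over the genome. The genome's value lay inside the interval of the ETS loci for losses and gains from naive cells, and just above it for this last share.

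**Figure D3:**
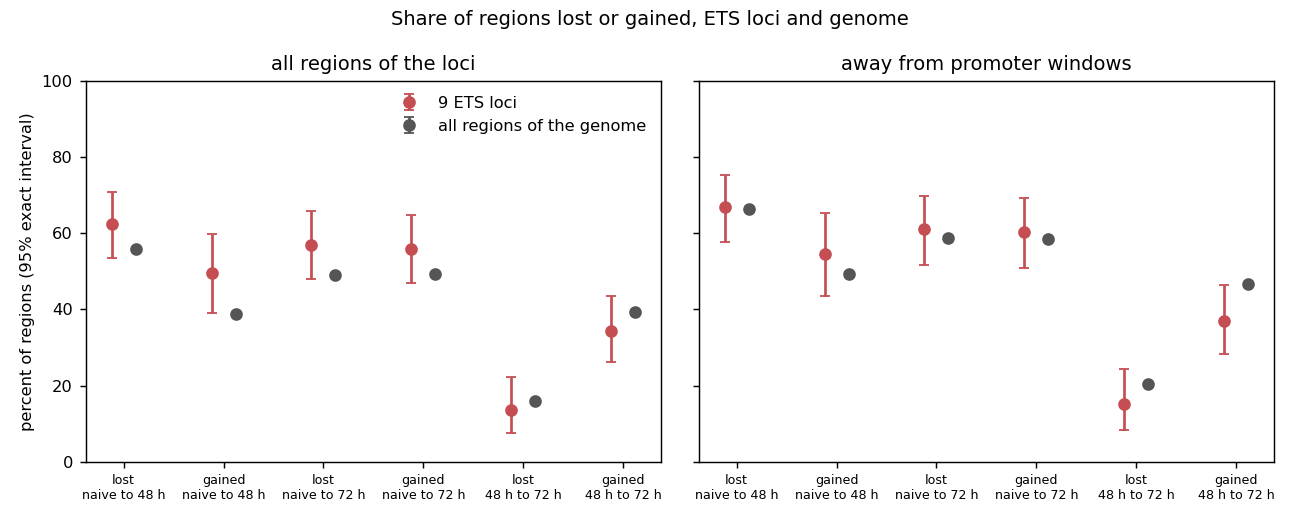
Percent of regions lost (of the earlier list) or gained (of the later list) at the 9 ETS loci (red) and over the genome (grey), with exact 95% intervals, for all regions (left) and for regions away from promoter windows (right). On the left, gains from naive to 48 h are 49.5% at the ETS loci and 38.8% over the genome; on the right they are 54.7% and 49.3%.

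Each presence pattern was found at the ETS loci. Of the 208 regions, 70 were in naive cells only (33.7%, 27.3 to 40.5%), where 28.8% of all regions were. At both culture times and absent from naive cells were 37 (17.8%, 12.8 to 23.7%), against 13.1% of all regions. Present in all 3 lists were 45 (21.6%, 16.2 to 27.9%), against 25.6% of all regions, and 33 were at 72 h only (15.9%, 11.2 to 21.6%), against 18.3%. The remaining patterns were smaller, with 10 at 48 h only (4.81% against 4.73%), 10 in naive cells and at 72 h (4.81% against 6.86%), and 3 in naive cells and at 48 h (1.44% against 2.57%). The interval of the ETS loci held the genome's value for each of the 7 patterns. Elf1 had the most constant regions, 8 of 22. Ets1 had the most naive-only regions, 17 of 37, and Etv6 the most regions shared by 48 h and 72 h alone, 11 of 36. Naive-only regions of these loci had a median width of 213.5 bp, against 466 bp for those in all 3 lists. The same medians over the genome were 193 bp and 604 bp.

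**Figure D4:**
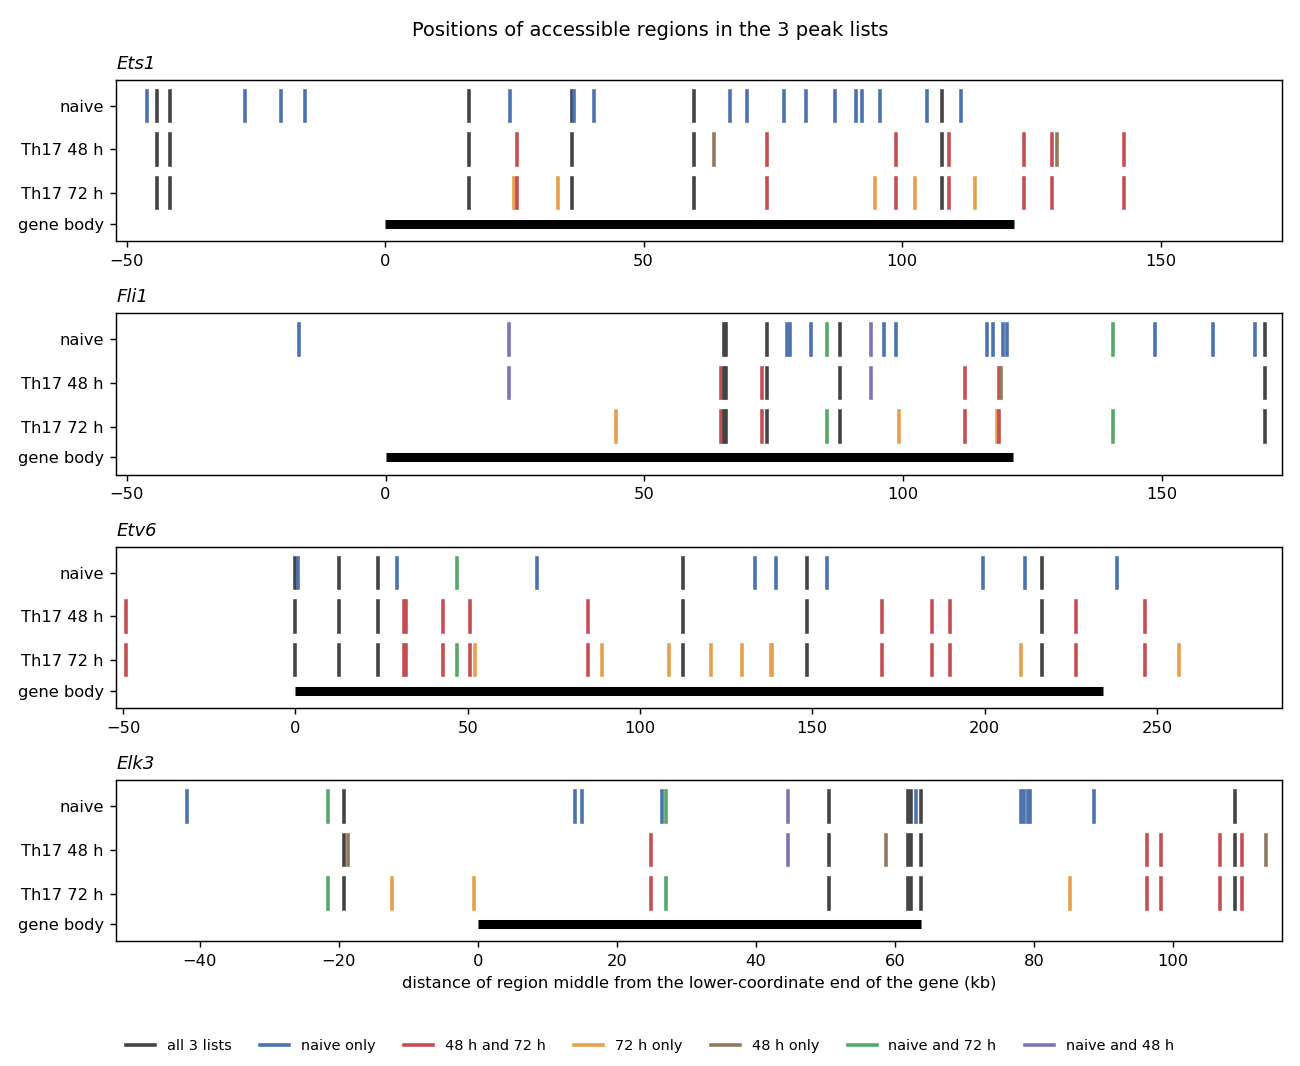
Positions of the accessible regions at Ets1, Fli1, Etv6 and Elk3 as distance in kb from the lower-coordinate end of the gene, in the 3 lists, with the colour showing the lists that hold the region and the black bar the gene body. Regions above the upper end of Ets1 are absent from the naive row, and Etv6 has regions of 48 h and 72 h on both sides of the middle of the gene.

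At Ets1 regions were counted below, inside and above the gene body, and the counts outside it are small and were not tested. The 6 regions below the lower end of the gene were all present in naive cells. Of them, 4 were in naive cells only, a pattern that 28.8% of all regions had. Shared with Fli1 are 2 of the 6, and chr9:32594338-32594729 overlaps a promoter window of Gm31871. The 4 regions above the upper end were all absent from naive cells. Of these 4, 3 were present at both times in culture, a pattern that 13.1% of all regions had. The one with the highest score, chr9:32778996-32779221, lay 21175 bp from the gene and scored 117 at 48 h and 154 at 72 h. Within the gene body 9 regions were gained and 13 lost by 72 h. The region with the highest score at the locus, chr9:32695660-32696231 inside the gene, was present in all 3 lists and scored 202 at 48 h and 267 at 72 h, the 94.4th percentile. Another constant region inside the gene, chr9:32652183-32652585, scored 168 at 72 h, and its peak widened from 126 bp in naive cells to 246 bp and 403 bp. The widest naive-only regions were chr9:32740872-32741380 with 509 bp and chr9:32747514-32747948 with 435 bp. Between them lies a region gained at both times, chr9:32745046-32745425, with a score of 102 at 72 h.

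At Fli1 the part of the gene body above its midpoint held 22 of its 24 inner regions. There 6 regions were gained and 10 lost by 72 h. The highest score at 72 h was 172, at chr9:32486814-32487049, a region of 236 bp absent from naive cells. A second gained region, chr9:32494831-32495157, scored 152 at 48 h and 125 at 72 h. The widest naive-only regions of Fli1 were chr9:32539303-32539791 with 489 bp and chr9:32541267-32541657 with 391 bp, both inside the gene body near its upper-coordinate end. The first of them lies where the 48 h list skips a number, as does the region chr9:32540169-32540473, found at 72 h only with a score of 109. Beside it, chr9:32540626-32540858 was found at both times with scores of 40 and 44. The 72 h scores of Fli1 had the lowest median of the 9 loci, 49, against 78 over all 72 h regions.

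At Etv6 gains were spread over the gene. By 72 h, 8 regions were gained and 3 lost below the midpoint of the body, and 9 were gained and 5 lost above it. The strongest gained region, chr6:134281943-134282588, lay 11784 bp above the upper end and scored 170 at 48 h and 282 at 72 h, the 95.4th percentile of 72 h regions. Inside the gene, chr6:134225363-134225926 scored 105 and 182 and chr6:134205702-134206092 scored 77 and 165, and both were absent from naive cells. The constant region chr6:134251929-134252597 had a peak of 124 bp in naive cells, 227 bp at 48 h and 669 bp at 72 h, with a 72 h score of 190. Among the regions at 72 h only, chr6:134156311-134156579 had the highest score, 90. Losses were also present, and the widest naive-only regions were chr6:134105590-134106015 with 426 bp and chr6:134175002-134175364 with 363 bp. The summed width of peaks at Etv6 was 5512 bp in naive cells, 6767 bp at 48 h and 9495 bp at 72 h, and at Fli1 it was 6414, 2245 and 3009 bp.

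At Elk3 the gains lay mostly beyond the upper end of the gene, the end that holds its annotated start. There 5 regions were gained and 5 lost by 72 h, while inside the gene 1 was gained and 5 were lost. The gained regions included chr10:93343369-93343960 with scores of 103 and 175, chr10:93345275-93346005 with 109 and 100, and chr10:93354005-93354266 with 86 and 102. Nearer to the gene, all regions from chr10:93325478 to chr10:93326956 were in naive cells only, a group of 4 chosen after its values were seen. The 48 h list skips numbers there and the 72 h list does not. The widest naive-only region, chr10:93335819-93336374 with 556 bp, overlaps a promoter window of Gm17745 and lies in the same kind of stretch. The strongest region of this locus, chr10:93227871-93228379, was constant, scored 309 at 72 h and lies inside the neighbour Cdk17.

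Erg had its gains mostly inside the body below the midpoint, with 7 gained and 3 lost there by 72 h. The strongest, chr16:95416005-95416404, was absent from naive cells and scored 92 at 48 h and 206 at 72 h, the 87.6th percentile. It was followed by chr16:95436684-95436901 with scores of 86 and 90 and chr16:95435985-95436365 with 70 and 67. The widest naive-only region, chr16:95374397-95374803 with 407 bp, lies where the 48 h list skips numbers. Genes of endothelium and platelets, which also use Erg, had 14, 15 and 18 regions within 10 kb over Cdh5, Pecam1, Tek, Kdr, Itga2b and Gp9. Tek and Gp9 had none in naive cells, and Pecam1, an adhesion molecule also found on some T cells, had 8 of the 14. The part of such cells in the Erg counts was not tested.

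At Ets2 and Elf1 the region with the highest 72 h score also had a naive peak. At Ets2 the region chr16:95728607-95729281, 7557 bp above the gene, was constant and scored 266 at 48 h and 267 at 72 h. A region below the gene, chr16:95682306-95682663, was gained with scores of 82 and 173, and chr16:95741847-95742361 with 54 and 106. At Elf1 the highest score, 313, belonged to the constant region chr14:79587059-79588001, which overlaps a promoter window of the neighbour Sugt1. The one region of Elf1 gained at both times, chr14:79499919-79500202, scored 70 and 158. Another 4 were at 72 h only, with a highest score of 58 at chr14:79475897-79476139. Among them, chr14:79519471-79519660 and chr14:79519770-79519895 lie where the 48 h list skips a number.

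At Spi1 the strong regions lay at its neighbours. Its 3 highest scores at 72 h, 280, 174 and 173, belonged to constant regions below the gene that lie inside Psmc3, Slc39a13 and Rapsn. Inside the Spi1 body there were 4 regions in naive cells, 2 at 48 h and 2 at 72 h, and the widest naive-only region was chr2:91088429-91088774 with 346 bp. Every naive region of the body without a 48 h peak, this one included, lies where the 48 h list skips a number. The region chr2:91082956-91083223, in the first kb from the lower end, had a peak of 195 bp in naive cells and of 265 bp with a score of 39 at 72 h. Myeloid genes, the usual company of PU.1, had 16, 11 and 11 regions within 10 kb over 8 genes, and Csf1r, Lyz2 and Adgre1 had 0 in every list. Of the naive count, 7 lay at Itgam, which went to 1 and 1. Fcgr3 had 3, 5 and 4, Cd14 had 2, 2 and 3, Cebpa had 1, 1 and 2, and Mpeg1 had 3, 2 and 1. The 6 B cell genes had 14, 16 and 28, of which Ebf1 had 4, 8 and 17, and Ms4a1 had 0 in every list. The part of other cells in the Spi1 counts was not tested.

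**Figure D5:**
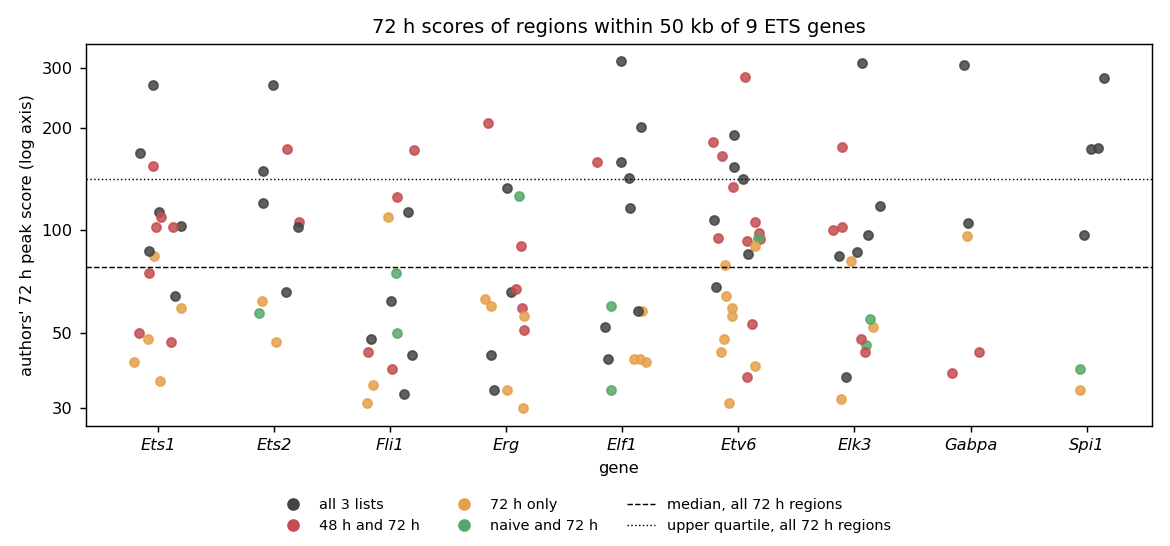
The authors' 72 h score (log axis) of every region with a 72 h peak within 50 kb of each gene, coloured by the lists that hold the region, with the median (78, dashed) and upper quartile (141, dotted) of all 72 h regions. The strongest regions of Elf1, Elk3, Gabpa and Spi1 are constant, and those of Etv6, Erg and Fli1 are absent from naive cells.

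Scores at 72 h were set beside those of the genome. Of 125 ETS regions at 72 h, 25 scored at or above the upper quartile of 141, and so did 13025 of 51941 regions in all. No interval was taken for this share, so a difference beyond counting error cannot be read from it. The medians were 75 and 78. Regions gained at both times had a median 72 h score of 98 at the ETS loci and 91 over the genome, and those in all 3 lists 105 and 133. Regions at 72 h only were weaker, with medians of 48 and 51. The highest-scoring regions were constant at Ets1, Ets2, Elf1, Elk3, Gabpa and Spi1. At Fli1, Erg and Etv6 they were absent from the naive list.

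Another 17 genes of the ETS family had 121 regions within 50 kb in naive cells, 86 at 48 h and 102 at 72 h. By 72 h 29 regions were gained and 48 lost. Both are smaller shares of the 102 regions at 72 h and the 121 naive regions than the 49.2% gained and 49.2% lost over the genome. More were gained at 5 genes, more lost at 9 and equal numbers at 3, among them Ehf with no region in any list. Over all genes, 40.5% had more gained and 43% more lost. The most unequal were Elf2, a relative of Elf1, with 2 gained and 9 lost, Etv3 with 1 and 6, Elf4 and Erf with 1 and 5 each, and Elk1, an SRF partner like Elk3, with 3 and 0. Genes of ETS partners had 96, 66 and 84 regions, with 35 gained and 47 lost by 72 h. Losses outnumbered gains at 5 of the 7 partners, against 43% of all genes. Among the 5 was Runx1, which encodes a factor that binds DNA jointly with ETS1, with 10 gained and 18 lost. Cbfb, the RUNX subunit, had 7 gained and 3 lost, and Irf4, a partner of PU.1, had 11 gained and 8 lost.

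Likeness was measured between members with the most regions and the other genes with at least 10 regions, as the Euclidean distance between their shares over the 7 presence patterns of the 3 lists. Of 8404 genes, Ifng (distance 0.0481, with 8, 6 and 7 regions) and H2-M10.6 were nearest to Ets1, and Ptpn2 (0.0685, with 10, 9 and 15) and Slc25a3 were nearest to Etv6. For Fli1 they were Taf3 (0.0534, with 20, 10 and 14) and Ccdc148, and for Elk3 Pik3c2a (0.0335, with 12, 10 and 10) and Prkacb. The counts behind these patterns are small.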

How the data were processed

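ATAC-seq of 6 libraries (3 conditions, 2 each) is represented by 3 deposited peak lists. Per the submitters' processing notes, the authors used MACS2 2.2.6, deepTools, Bowtie2 2.3.4.1 and SAMtools 1.9, with builds GRCm38 and mm10. How peaks were thresholded and filtered, how duplicates and the Tn5 shift were treated and whether libraries were pooled is not stated. The deposited lists have no header, and the deposited 48 h and 72 h lists hold a whole-number score per peak whose scale is not stated, and the naive list holds none. An empty naive line (1 in all) was dropped. Read depth is unknown, so no count test was run.

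Peaks were read as 0-based and coordinates are given 1-based. Merging and counting were done in Python 3.11.15 and exact Clopper-Pearson intervals in SciPy 1.17.1, and the merging was tested on simulated peaks. Genes came from RefSeq GRCm38.p6 (21900 protein-coding genes, all 9 members matched), whose gene table holds no strand. Single regions named are the start region, the 3 highest 72 h scores, the 3 highest among those gained at both times, the highest at 72 h only and the 2 widest naive-only of each member. Regions nearest to an end of Erg or Spi1 and a group at Elk3 fall outside this rule and were chosen after their values were seen. Other ETS genes named are those with the most unequal counts. For likeness, 4 members were used because Fli1 and Elk3 tie. Members and lists were chosen with earlier results of these data known. In all, 6 planned and 4 added alternatives were run.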

Additional observations from a re-analysis of the deposited data

How the results depend on the processing

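No paired analysis was possible because 1 peak list per condition was analysed, and leaving out a replicate could not be run for the same reason. Of the 60 values of the 6 shares under other settings, 58 stayed within the 95% interval of the reported share. Most settings take part of the same regions and the intervals are wide, so staying inside them is a weak check. The settings were flanks of 10 kb or none, merging at 50% of the shorter peak, the upper part of each list by score or width, equal numbers of the widest peaks and the nearest gene body, with 4 chosen after seeing the data (calls outside skipped stretches, regions away from promoter windows, and without Etv6 or Ets1). With equal numbers of the widest peaks, 24.5% of 72 h regions were gained over 48 h, where the same setting gave 28.7% over the genome. From naive to 48 h this setting gave 58.6% lost (48.2 to 68.4%) and 56.8% gained (46.3 to 67.0%), and over the genome 47.2% and 44.0%. With the upper part of each list, 65.6% were lost (52.7 to 77.1%) and 55.1% gained (40.2 to 69.3%) at 48 h. Over the genome these were 52.7% and 37.3%. At 72 h they were 57.8% (44.8 to 70.1%) and 56.5% (43.3 to 69.0%), and over the genome 45.5% and 46.2%. Outside skipped stretches, 52.9% of naive regions were lost at 48 h, where the same setting gave 49.6% over the genome; this setting can only remove gained or lost calls and not shared regions.

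For the difference of gained and lost regions of each member, 13 of 264 values turned in direction. Another 78 changed in size or went to or from 0 without turning, and 173 stayed the same or near it. Erg from naive to 48 h and Gabpa from 48 h to 72 h had a reported difference of 0, which cannot turn. With equal numbers of the widest peaks, Ets1 went to 1 from naive to 72 h, and Fli1 to -1 and Elk3 to -7 from 48 h to 72 h. With the stricter peaks (at or above the median score, or median width in naive cells), Erg went to -1 from naive to 72 h and to -2 from 48 h, Fli1 to -2 from 48 h to 72 h, and Gabpa to -2 from naive to 48 h. Etv6 went to -1 from naive to 48 h with flanks of 10 kb, and Elk3 to -1 from 48 h to 72 h within the gene body or by nearest gene. Outside skipped stretches, Elk3 went to 1, Spi1 to 1 and Gabpa to -1 from naive to 48 h. Apart from these built-in effects, the cause was not tested. Etv6 from naive to 72 h ranged from 8 to 13 and Fli1 kept its sign there in every setting run. The number of peaks, the small counts per gene and the absence of replicate lists limit all of these values.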
